A study of Mus musculus with 3 samples.

Results

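The regions described here are stretches of accessible mouse chromatin that lay between genes, 5 to 100 kb from the nearest start of a protein-coding transcript. The broad peaks of 3 ATAC-seq samples were merged into 144115 regions on 16 autosomes, and 37716 of these (26.2%) were kept. A kept region overlapped no protein-coding gene body and lay over 5 kb from every start of a lincRNA or antisense transcript (GENCODE M21, mm10). Chromosomes 6, 8 and 11 were left out by the rule. On chromosomes 6 and 8 the number of peaks per Mb was 3.00 to 3.29 times the median of the other autosomes in the engineered line, and on chromosome 11 it was 3.98 times that median in the wild type. Beyond the chromosomes left out and the presence of a peak in at least 1 list, the rule used position alone and no peak height.

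The samples were mouse embryonic stem (ES) cells of the HM1 line (strain 129) after 72 h of differentiation towards caudal epiblast-like cells (CEpiLCs), and each of the 3 groups had 1 sample. All had received 10 ng/ml bFGF and 5 µM LGK974, an inhibitor of WNT secretion, and from 2 days on also CHIR99021, which activates the WNT pathway inside the cell. Both doxycycline-controlled samples, SOX2-ON and SOX2-OFF, were grown from 1 clonal Sox2-/- line, in which both endogenous copies had been ablated and a doxycycline-inducible Sox2 transgene sat in the Hprt locus, driven by rtTA from Rosa26. Doxycycline (1 µg/ml in ES culture) was maintained in SOX2-ON and withdrawn in SOX2-OFF, and the CEpiLC sample was wild type. A difference between CEpiLC and either other sample can therefore not be told apart from one between cell lines, and with 1 sample a group no difference has a replicate check.

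Gene regulation at a distance works through enhancers, short DNA elements where transcription factors bind and nucleosomes are displaced, so that the transposase used in ATAC-seq can cut. SOX2 belongs to the SOX family, binds a short AT-rich word in the minor groove of DNA and is among the factors that keep ES cells pluripotent and neural progenitors undifferentiated. WNT signalling acts on enhancers through β-catenin bound to TCF/LEF factors, GATA factors are known for endoderm and blood, T (Brachyury) for the primitive streak, and CDX and HOX factors for posterior identity. CTCF binds the anchors of chromatin loops and is present in nearly every cell type. Promoters tend to be open in many cell types, whereas distal sites differ more between them.

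Motif words were searched for on both strands in 200 bp of each region. These lay around the midpoint of its peak of highest −log10 p percentile in any list, called the region's centre below. For SOX the word was either CCATTGT or the variant CCTTTGT. The GATA factor word was AGATAAG, that of TCF/LEF factors was CTTTGAT, and Brachyury, written T below, had the word TCACACCT. The CTCF word was made of the block CCA at its start, the block AG in its middle and the block GGC at its end, each separated from the next by 2 unspecified bases. The word CCTTTGT and the word CTTTGAT share the letters CTTTG but cannot both match at those letters. Among all merged regions, 9.01% of windows held a SOX word, 3.02% a GATA word, 3.38% a TCF/LEF word, 1.16% a T word and 2.94% a CTCF word. A match is a run of letters and not a measured binding event.

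The following windows, read 5′ to 3′ on the plus strand of GRCm38 (mm10), show what such regions look like. Capitals mark only the word for which a window is shown, and other searched words in it stay in lower case, such as a SOX word in the Ripor2 window and a T word and an AP-1 word in the Loxl4 window. In the list of SOX2-ON alone, the strong regions with a SOX word and less than 50% repeat sequence included 1 that lay 18131 bp downstream of the start of Peg12 (window chr7:62445829-62446028) and 1 that lay 19545 bp downstream of that of BC107364 (chr3:96432300-96432499), where the word occurs 2 times.
Peg12: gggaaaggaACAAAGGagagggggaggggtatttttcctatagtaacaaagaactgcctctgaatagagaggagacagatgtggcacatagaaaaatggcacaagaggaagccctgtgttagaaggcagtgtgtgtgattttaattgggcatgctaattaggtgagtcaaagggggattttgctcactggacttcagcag
BC107364: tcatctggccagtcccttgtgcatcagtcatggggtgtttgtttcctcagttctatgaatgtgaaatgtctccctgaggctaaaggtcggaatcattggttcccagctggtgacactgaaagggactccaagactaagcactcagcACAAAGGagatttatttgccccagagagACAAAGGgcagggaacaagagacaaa
In the Peg12 window the word stands as ACAAAGG, the same word read from the opposite strand. Fold enrichment over local background was 4.76 at the Peg12 region and 3.27 at the BC107364 region in SOX2-ON, with no peak in either other list.

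GATA words in regions that both samples of the engineered line listed and the wild type did not are shown by a region 15819 bp upstream of Ripor2 (window chr13:24565755-24565954) and a region 87007 bp downstream of Sptssa (chr12:54568759-54568958), the latter with 2 words.
Ripor2: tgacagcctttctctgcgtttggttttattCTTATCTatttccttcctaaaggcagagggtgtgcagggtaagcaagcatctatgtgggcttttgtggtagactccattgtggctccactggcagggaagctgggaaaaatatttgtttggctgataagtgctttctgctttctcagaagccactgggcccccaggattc
Sptssa: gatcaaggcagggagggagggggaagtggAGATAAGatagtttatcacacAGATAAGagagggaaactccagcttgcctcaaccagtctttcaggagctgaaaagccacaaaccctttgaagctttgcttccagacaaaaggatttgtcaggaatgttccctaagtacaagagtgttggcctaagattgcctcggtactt
Fold enrichment was 3.10 in SOX2-ON and 2.41 in SOX2-OFF at the Ripor2 region. At the Sptssa region it was 3.59 and 2.19, in the same order.

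TCF/LEF words were found in regions listed in SOX2-OFF and CEpiLC but not in SOX2-ON. A region 18293 bp upstream of Loxl4 (window chr19:42631662-42631861) and a region 21148 bp downstream of Zfp974 (chr7:27905602-27905801) stand for them.
Loxl4: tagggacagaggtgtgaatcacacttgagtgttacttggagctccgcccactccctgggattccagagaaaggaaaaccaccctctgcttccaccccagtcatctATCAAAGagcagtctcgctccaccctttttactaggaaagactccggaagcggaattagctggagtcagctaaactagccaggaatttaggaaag
Zfp974: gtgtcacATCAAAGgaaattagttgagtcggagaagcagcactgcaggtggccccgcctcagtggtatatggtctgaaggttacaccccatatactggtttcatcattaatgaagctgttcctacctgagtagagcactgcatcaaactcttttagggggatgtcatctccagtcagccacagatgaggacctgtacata
The Loxl4 region had a fold enrichment of 2.87 in SOX2-OFF and 2.73 in CEpiLC, and the Zfp974 region of 2.96 and 2.54.

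CTCF words were commonest in regions listed in all 3 samples, such as one 20948 bp downstream of Abt1 (window chr13:23401794-23401993).
Abt1: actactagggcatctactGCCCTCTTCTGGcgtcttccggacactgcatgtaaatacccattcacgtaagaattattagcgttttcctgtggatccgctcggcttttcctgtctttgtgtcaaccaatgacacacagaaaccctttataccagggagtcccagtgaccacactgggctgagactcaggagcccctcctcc
Fold enrichment at the Abt1 region was 3.90 for SOX2-ON, 3.56 for SOX2-OFF and 3.77 for CEpiLC, close to even across the samples.

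Some windows near developmental genes held the same words, whereas those of the strongest regions of Otx2, Pax3 and Six3, among others, held no searched word. A Nodal region (window chr10:61406083-61406282) held a TCF/LEF word, an Eomes region (chr9:118389938-118390137) a T word and a Klf5 region (chr14:99275322-99275521) a SOX word.
Nodal: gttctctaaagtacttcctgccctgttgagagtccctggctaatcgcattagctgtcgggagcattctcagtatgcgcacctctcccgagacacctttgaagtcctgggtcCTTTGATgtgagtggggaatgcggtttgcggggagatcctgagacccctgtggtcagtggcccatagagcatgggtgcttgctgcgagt
Eomes: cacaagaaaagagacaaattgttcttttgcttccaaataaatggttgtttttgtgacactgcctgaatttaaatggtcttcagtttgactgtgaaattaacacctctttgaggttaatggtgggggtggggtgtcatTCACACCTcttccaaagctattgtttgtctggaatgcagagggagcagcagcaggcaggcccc
Klf5: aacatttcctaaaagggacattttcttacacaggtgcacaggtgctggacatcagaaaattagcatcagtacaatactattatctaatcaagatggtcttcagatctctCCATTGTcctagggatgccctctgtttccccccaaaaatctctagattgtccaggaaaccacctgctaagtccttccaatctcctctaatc
All were listed in every sample, and their values are given with the genes below.

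Which samples listed the intergenic regions was examined first, since a peak present in 1 list and absent from another is the plainest difference the lists allow. Of the 37716 regions, 10981 (29.1%, Wilson 95% interval 28.7 to 29.6) held a peak of all 3 lists, compared with 31.2% of all merged regions. Listed in SOX2-ON only were 6114 (16.2%, against 16.4% of all merged regions), in SOX2-OFF only 4940 (13.1%, against 13.4%) and in CEpiLC only 7948 (21.1%, against 20.0%). Both samples of the engineered line shared 2514 regions that CEpiLC lacked (6.67%, against 6.47%). SOX2-OFF and CEpiLC shared 3597 that SOX2-ON lacked (9.54%, against 8.66%), and SOX2-ON and CEpiLC shared 1622 that SOX2-OFF lacked (4.30%, against 3.88%). Each of these shares lay close to that of all merged regions, and the intervals cover counting error over regions only.

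**Figure D1:**
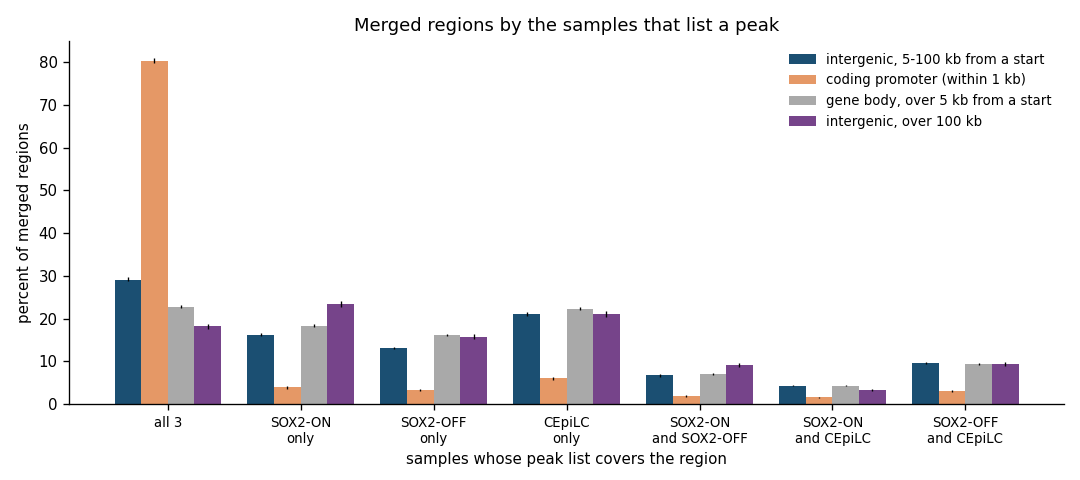
Percent of merged regions (y axis) by the samples whose peak list covers them (x axis), for the intergenic regions, coding promoters, gene bodies away from a start and intergenic regions over 100 kb away. Bars are shares of regions and error bars Wilson 95% intervals. The share listed in all 3 samples was 29.1% for the intergenic regions and 80.3% for promoters.

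The intergenic regions differed most from promoters, as the plot of shares by sample shows. Of 15616 regions within 1 kb of a coding start, 80.3% were listed in all 3 samples, and of 57082 regions in gene bodies over 5 kb from a start, 22.7% were. Beyond 100 kb from a start the share was 18.2% of 17077 regions. Within the intergenic regions the share in all 3 samples fell with distance, from 32.9% at 5 to 10 kb to 31.2% at 10 to 25 kb, 28.9% at 25 to 50 kb and 24.1% at 50 to 100 kb. Over the same steps the share listed in SOX2-ON only rose from 13.5% to 19.6%, while those of SOX2-OFF only stayed between 12.9% and 13.5%. The rule's limits did not mark a step: 36.8% of regions at 4 to 5 kb and 33.7% at 5 to 6 kb were listed in all 3 samples, as were 21.2% at 95 to 100 kb and 24.4% at 100 to 105 kb.

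Regions listed in a single sample were mostly weak. Their median percentile of −log10 p within their own list, where 100 is the strongest peak, was 30.0 in SOX2-ON only, 21.4 in SOX2-OFF only and 26.3 in CEpiLC only. In the regions of all 3 samples it was 58.1 for SOX2-ON, 65.7 for SOX2-OFF and 68.7 for CEpiLC. Width was that of the merged region, which spans the peaks of every list in it, so widths of these classes do not show a link with strength. Medians were 1235 bp for regions of all 3 samples and 361, 389 and 307 bp for those of SOX2-ON, SOX2-OFF and CEpiLC only. Fold enrichment itself was low throughout, with medians over the listed regions of 1.73 for SOX2-ON, 1.64 for SOX2-OFF and 1.72 for CEpiLC. When peaks were required to reach a −log10 q of 5, the order of the classes turned: the share of SOX2-ON only became 25.8%, that of SOX2-OFF only 18.5% and that of CEpiLC only 2.40%.

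The lists also differed in reach. At rank 15000 the −log10 p was 27.4 for SOX2-ON, 22.1 for SOX2-OFF and 11 for CEpiLC, although the lists were of like length (129843, 131520 and 130348 peaks). The depth of each library is unknown, since no read totals were used. Strength was therefore compared by rank, and a region was called strong in a list if it held 1 of the 15000 strongest peaks of that list on the 16 autosomes. By that rule 1781 of the intergenic regions were strong in SOX2-ON, compared with 1763 in SOX2-OFF and 1838 in CEpiLC, and 3073 in at least 1 of them.

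Strong regions without a peak in another sample were found mainly in SOX2-ON. Of its 1781 strong intergenic regions, 201 had no peak at all in SOX2-OFF (11.3%, 9.90 to 12.8), against 5.11% of strong merged regions of every kind. From CEpiLC, 324 were missing (18.2%, 16.5 to 20.1), against 7.74%. In the opposite direction, 51 of the 1763 strong regions of SOX2-OFF had no peak in SOX2-ON (2.89%, 2.21 to 3.78, against 1.28%) and 34 none in CEpiLC (1.93%, against 0.713%). Of the 1838 strong CEpiLC regions, 46 had no peak in SOX2-ON (2.50%, against 1.21%) and 22 none in SOX2-OFF (1.20%, against 0.536%). The SOX2-ON shares lay outside the intervals of all 4 others, but the interval counts regions and holds no error between samples.

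**Figure D2:**
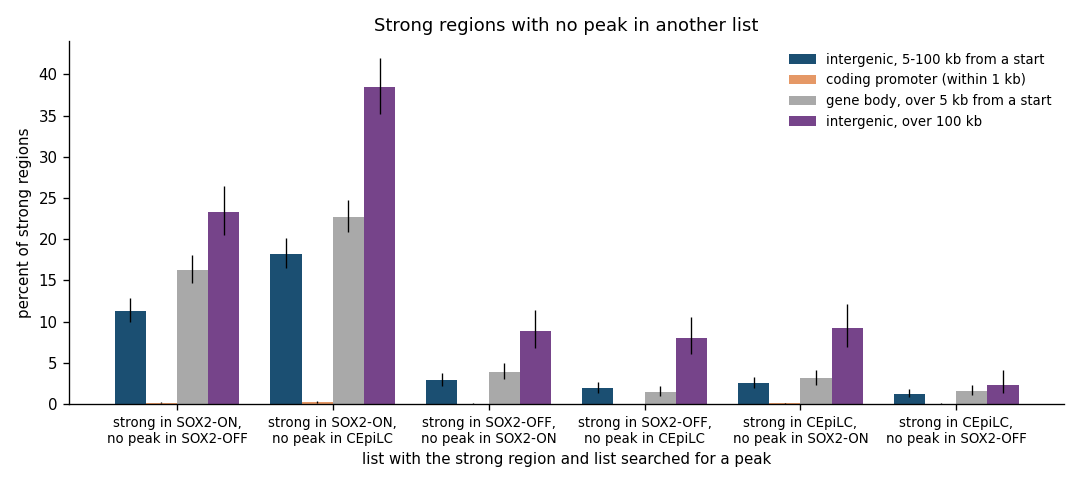
Percent of strong regions (y axis) that hold no peak in another sample's list (x axis, 6 ordered pairs of samples), by position. Error bars are Wilson 95% intervals. For the intergenic regions 5 to 100 kb away the share was 11.3% from SOX2-ON to SOX2-OFF and 2.89% in reverse, and promoters stayed at or below 0.189%.

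The share varied with position, as the plot of strong regions shows. In SOX2-ON against SOX2-OFF it was 0.116% at promoters, 16.3% in gene bodies and 23.3% beyond 100 kb, so the 11.3% of the intergenic regions lay above promoters and below both others. Among the latter it was 8.07% at 5 to 10 kb, 8.82% at 10 to 25 kb, 10.3% at 25 to 50 kb and 18.1% (14.7 to 22.1) at 50 to 100 kb. It also varied with rank. Of the intergenic regions among the 5000 strongest SOX2-ON peaks, 1 of 145 was missing from SOX2-OFF (0.690%), at ranks 5001 to 10000 it was 7.58% of 554 and at ranks 10001 to 15000 14.6% of 1082. For SOX2-OFF against SOX2-ON the same bands gave 0.752%, 1.85% and 3.59%. Among the 5000 strongest peaks the shares of the pair had overlapping intervals (0.122 to 3.80 and 0.133 to 4.14), and the excess of SOX2-ON stood below that rank.

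Among regions of SOX2-ON only, the highest percentile (93.1) belonged to a region 47138 bp upstream of Gata6, which encodes a GATA factor of the primitive endoderm, with a fold enrichment of 4.14 and a SOX word in its window. Gata6 had a further strong SOX2-ON only region 45136 bp upstream, at percentile 86.9. A region 17726 bp upstream of Sap18, a subunit of a histone deacetylase complex, reached percentile 92.0 and a region 61476 bp downstream of Bnc2, a zinc finger gene, 91.4. Those of Pnp2, a purine enzyme (91.3), and Camsap2, a microtubule-binding protein (91.0), followed. Gata6, Nabp1 and Rcc2 were the only genes nearest to 2 strong regions of a single list.

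SOX2-OFF only held 5 strong regions of 4940, CEpiLC only 8 of 7948 and SOX2-ON only 162 of 6114. Over all merged regions these classes held 10 of 19256, 37 of 28891 and 661 of 23595. The contrast was therefore not particular to the intergenic regions. The leading SOX2-OFF only region lay 12009 bp upstream of Ifngr2, a receptor chain for interferon gamma, at percentile 99.9 and a fold enrichment of 8.68 over 433 bp. It stood far above the next, 19992 bp downstream of Mfng, a modifier of Notch receptors, at percentile 87.6, and a region 50496 bp upstream of Gsk3b, the kinase that CHIR99021 blocks, at 84.2. In CEpiLC only, a region 73222 bp upstream of Ppp3ca, a calcineurin subunit, and a region 5036 bp upstream of Lpgat1, a lipid enzyme, led at percentile 87.0.

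Regions of a pair of samples had leaders of different make-up. In SOX2-OFF and CEpiLC these were the region near Loxl4, an amine oxidase of the extracellular matrix (percentiles 88.5 and 90.6), one 17708 bp downstream of Mmp27, a matrix protease (89.3 and 87.8), and one 16255 bp upstream of Pgr, the progesterone receptor (91.5 and 86.8), with TCF/LEF words at Loxl4 and Pgr. In SOX2-ON and SOX2-OFF the leaders near Ogfrl1, Gm5591, Gm21833 and Vmn1r64 had windows made wholly of repeats, and the strong regions of that class had a mean repeat content of 43.3%, compared with 19.9% in the strong regions of all 3 samples. In SOX2-ON and CEpiLC a region of 168 bp near Hic2, a transcriptional repressor, stood at the very top of both lists, with fold enrichments of 16.3 and 11.4 and no peak in SOX2-OFF. A region of 183 bp near Grhl2, a factor of epithelia, reached 88.9 and 99.0, and one of 1135 bp near Olig3, a neural tube factor, 85.3 and 87.9.

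The strongest regions of all 3 samples were of unusual kinds and were left in. The first by its lowest percentile, 25128 bp upstream of Col19a1, had fold enrichments of 13.5 for SOX2-ON, 11.1 for SOX2-OFF and 14.5 for CEpiLC, and 95.1% of its 31-base words also occur in the mitochondrial genome. It was the only intergenic region with at least 50% such words. The next, 81479 bp downstream of Tmem196, had 28.9, 11.1 and 21.3. A region of 237 bp near Chrm3 overlapped the miRNA gene Gm24187 and a region near Fcgr1 the snRNA gene Gm24830. A region 51732 bp upstream of Wnt7b, a WNT ligand, came at percentiles 99.8, 99.9 and 99.9. In all, 12.8% of the intergenic regions overlapped the body of an annotated non-coding gene or pseudogene, from 11.6% in CEpiLC only to 14.3% in all 3 samples.

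Letters in the windows differed between these classes, which the choice of regions had not used. SOX words were found in 14.6% of the 6114 regions of SOX2-ON only (13.7 to 15.5), compared with 8.59% in all 3 samples (8.08 to 9.13), 7.65% in SOX2-OFF only and 7.10% in CEpiLC only. The word read backwards, which keeps its base composition, was found in 7.56% of the SOX2-ON only windows. Regions of all 3 samples weighted to the same GC content gave 8.99%. Among strong regions the share was 21.6% in SOX2-ON only (35 of 162, 16 to 28.6), 19.4% in both samples of the engineered line (35 of 180) and 28.6% in SOX2-ON and CEpiLC (14 of 49, 17.8 to 42.4). It was 9.82% in strong regions of all 3 samples and 6.85% in SOX2-OFF and CEpiLC (5 of 73). Read backwards, the word was found in 13.0% of the strong SOX2-ON only windows.

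**Figure D3:**
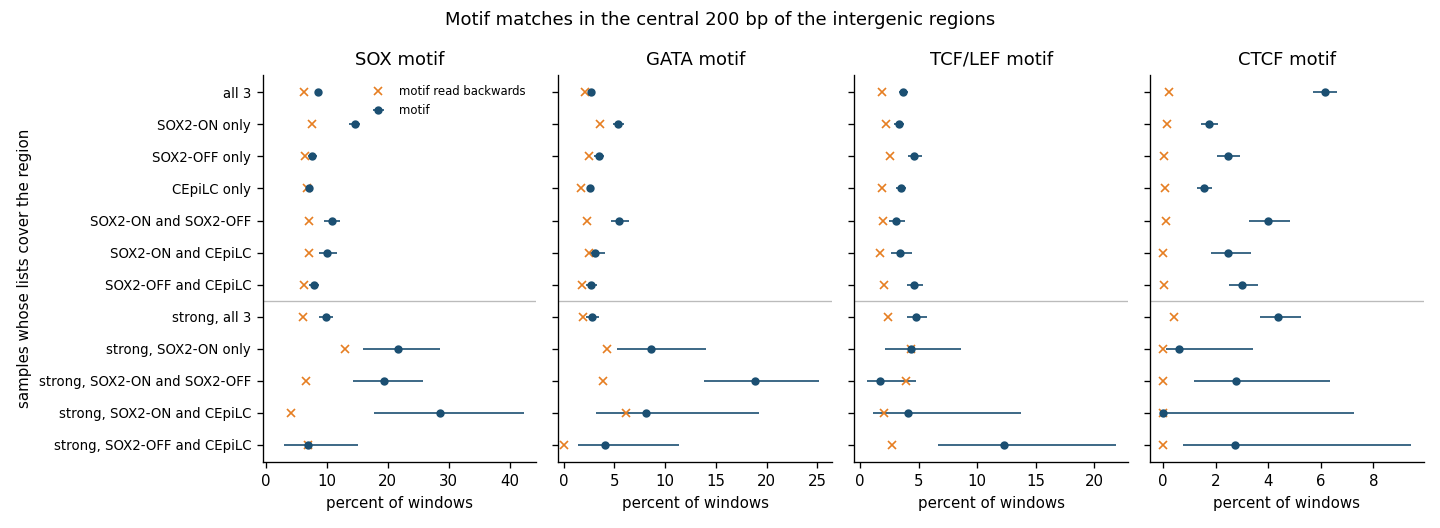
Percent of central 200 bp windows with at least 1 match (x axis, 1 panel per motif) by the samples that list the region (y axis), with the strong regions below the line. Points are shares with Wilson 95% intervals and crosses the share for the motif read backwards. SOX stood at 14.6% in SOX2-ON only, GATA at 18.9% in strong regions of SOX2-ON and SOX2-OFF and CTCF at 6.16% in regions of all 3 samples.

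The number of SOX words went with absence from SOX2-OFF. Of the strong SOX2-ON regions with none, 10.0% had no peak in SOX2-OFF (154 of 1533, 8.64 to 11.7), with 1 word 18.6% (42 of 226, 14.1 to 24.2) and with 2 or more 22.7% (5 of 22, 10.1 to 43.4). From CEpiLC the shares were 16.6%, 27.9% and 27.3%. The step from none to 1 exceeded the intervals in both comparisons, and that from 1 to 2 or more did not. The composite OCT-SOX motif, in which an OCT word follows a SOX word, was rare. It was found, with up to 2 mismatches, in 0.752% of SOX2-ON only windows (46 of 6114, 0.565 to 1.00), in 0.617% in SOX2-ON and CEpiLC, in 0.355% in all 3 samples and in 0.0834% in SOX2-OFF and CEpiLC (3 of 3597).

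SOX words gathered at the centre of the SOX2-ON only regions. There were 0.823 and 0.837 words per kb in the 100 bp on either side of the centre, 0.754 and 0.747 in the next 100 bp and 0.370 and 0.368 at 1 kb. Backwards, the same positions held 0.411 and 0.409 at the centre. Regions of all 3 samples had a lower rise, to 0.467 and 0.469 at the centre. The share was similar with and without repeats. SOX2-ON only windows without a repeat base held a SOX word in 15.3% (7.51% backwards) and those of 50% or more repeat in 12.9% (4.37%).

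**Figure D4:**
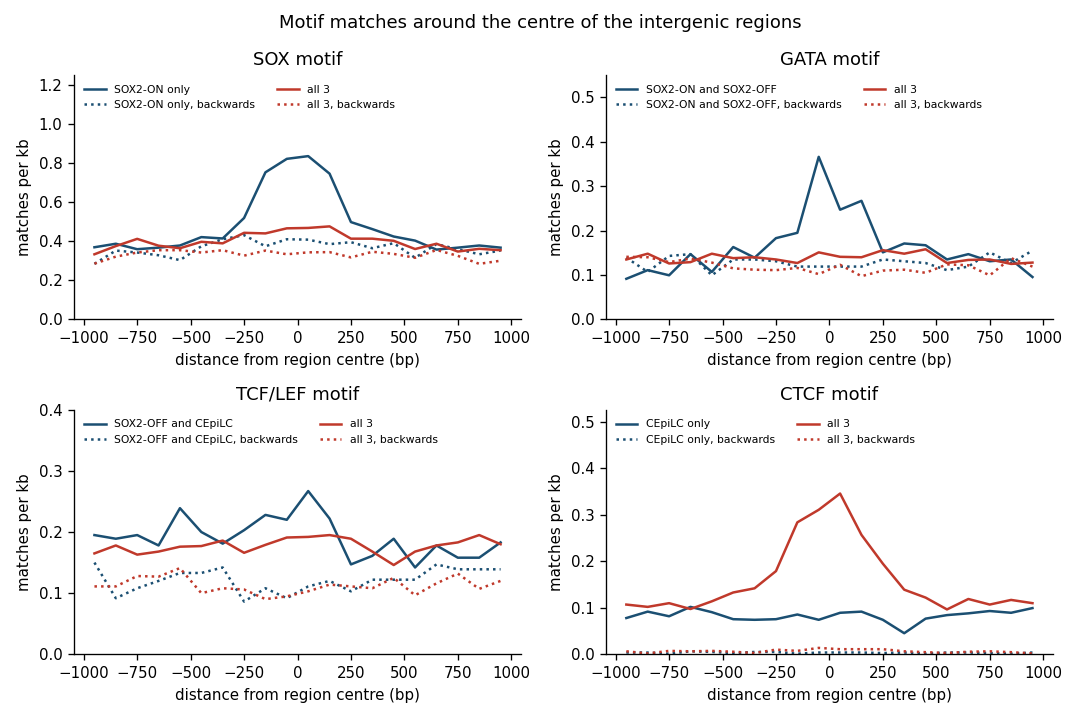
Matches per kb (y axis) in 100 bp bins by distance from the region's centre (x axis) for 4 motifs, in a class named in each panel and in regions of all 3 samples. The centre is the midpoint of the region's peak of highest percentile in any list. Solid lines are the motif and dotted lines the motif read backwards. SOX words reached 0.837 per kb at the centre of SOX2-ON only regions, against 0.469 in all 3 samples.

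GATA words were most frequent in the regions of SOX2-ON that CEpiLC lacked. They were found in 5.49% of the regions listed in SOX2-ON and SOX2-OFF (4.66 to 6.45) and in 5.40% of SOX2-ON only (4.86 to 5.99). The share was 3.48% in SOX2-OFF only (3.01 to 4.03), 3.14% in SOX2-ON and CEpiLC, 2.70% in SOX2-OFF and CEpiLC, 2.68% in all 3 samples and 2.62% in CEpiLC only. Among strong regions of SOX2-ON and SOX2-OFF the share was 18.9% (34 of 180, 13.8 to 25.2) and 3.89% backwards. Of the strong SOX2-ON regions without a GATA word 16.3% had no CEpiLC peak, with 1 word 51.2% (43 of 84, 40.7 to 61.6) and with 2 or more 83.3% (5 of 6). Against SOX2-OFF, in the same line, the shares were 10.8%, 20.2% and 16.7%. In windows without a repeat base 6.84% of the SOX2-ON and SOX2-OFF regions held the word (2.08% backwards). In windows of 50% or more repeat 1.89% did (1.89% backwards). For SOX2-ON only these shares were 5.06% (3.34% backwards) and 4.44% (4.68% backwards). In the windows rich in repeats the word thus did not exceed its backwards reading in either class. Promoters of all 4 endoderm markers examined (Sox17, Foxa2, Gata4 and Gata6) and of all 4 trophectoderm markers held a peak in every sample, as did those of the 5 epiblast and 5 caudal markers, with Cdx2 counted in 2 of these lists. Of the 2 surface ectoderm markers, Krt5 and Trp63, none had a promoter peak in SOX2-ON, whereas 1 had in SOX2-OFF and 2 in CEpiLC. Accessibility is not expression, and the part of other cell types in the GATA share was not tested.

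TCF/LEF words were most frequent in strong regions of SOX2-OFF and CEpiLC. They were found in 12.3% of the strong regions of SOX2-OFF and CEpiLC (9 of 73, 6.62 to 21.8; 2.74% backwards), compared with 4.78% in strong regions of all 3 samples and 1.67% in those of SOX2-ON and SOX2-OFF. The strong regions of SOX2-OFF only and of CEpiLC only were too few to read, with the word in 0 of 5 and 0 of 8. Over regions of any strength the shares were nearer, 4.61% in SOX2-OFF and CEpiLC (3.98 to 5.35), 4.62% in SOX2-OFF only, 3.68% in all 3 samples (3.34 to 4.05) and 3.46% in CEpiLC only. Of the strong SOX2-OFF regions with a TCF/LEF word 7.77% had no peak in SOX2-ON (8 of 103, 3.99 to 14.6), against 2.59% without (1.93 to 3.47). For strong CEpiLC regions these shares were 4.76% (4 of 84, 1.87 to 11.6) and 2.39% (1.78 to 3.22), with overlapping intervals. T words, the site of Brachyury, were found in 1.94% of SOX2-OFF only, 1.78% of SOX2-OFF and CEpiLC and 1.12% of the regions of all 3 samples, but backwards these shares were 1.46%, 1.31% and 1.30%. The CDX/HOX word TTTATNG was found in 15.1% of the strong SOX2-OFF and CEpiLC regions (11 of 73) and, backwards, in 12.3%.

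CTCF words were commonest in shared regions. They stood in 6.16% of the regions of all 3 samples (5.72 to 6.62; 0.219% backwards), 3.98% in SOX2-ON and SOX2-OFF, 3.00% in SOX2-OFF and CEpiLC, 2.47% in SOX2-ON and CEpiLC, 2.45% in SOX2-OFF only, 1.73% in SOX2-ON only and 1.55% in CEpiLC only. At the centre of the regions of all 3 samples there were 0.346 words per kb (0.0109 backwards), and at 1 kb 0.107 (0.00637 backwards). The reversed CTCF word was thus rare away from the centre too, so its share is a weak control for this motif. Of the strong SOX2-ON regions with 1 CTCF word 1.69% were missing from SOX2-OFF (1 of 59), against 11.6% without. The share with a CTCF word was 3.48% at 5 to 10 kb, 4.17% at 10 to 25 kb, 2.99% at 25 to 50 kb and 2.70% at 50 to 100 kb.

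Among the other words, KLF words (GGGNGTGGC) ranged from 1.70% to 2.86% over the 7 classes, OTX words (TAATCCC) from 2.31% to 2.63% and AP-1 words (TGANTCA) from 5.98% to 8.38%. FOXH1 words (TGTGGATT or TGTGTATT), the site of a Nodal pathway factor, were highest in SOX2-ON only at 2.27% (1.93 to 2.68), against 1.32% in all 3 samples. OCT words (ATGCAAAT) were found in 2.04% of SOX2-ON only and 0.818% of CEpiLC only. Backwards and GC-weighted shares of the FOXH1 and OCT words are not given here. Median GC content was 47.5% in SOX2-ON only, against 50.5% in all 3 samples and in CEpiLC only. ESRRB words (CAAGGTCA), FOX words (TGTTTAC), TEAD words (ACATTCCA) and GRHL words (AACNNGTT) were also counted, and FOX and GRHL words were rarer in all intergenic windows (2.94% and 2.97%) than the same words read backwards (3.60% and 4.37%).

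Where all 3 samples listed a region, heights could be compared, as fold enrichment centred on the 12547 promoters of all 3 samples. A region was called different at over 1.5-fold. Between SOX2-ON and SOX2-OFF, 172 of the 10981 intergenic regions were higher (1.57%, against 1.28% of all merged regions) and 643 lower in SOX2-ON (5.86%, against 4.61%), with a median log2 ratio of -0.25. The direction of this split turned with the centring: centred on all shared regions, 337 were higher and 204 lower, so 62.3% of the called regions were higher rather than 21.1%. Between SOX2-ON and CEpiLC, 105 were higher (0.956%, against 0.923%) and 2512 lower (22.9%, against 17.3%), with a median log2 ratio of -0.45, and the other centring gave 501 and 116. Between SOX2-OFF and CEpiLC, 34 were higher (0.310%, against 0.260%) and 100 lower (0.911%, against 0.725%), with a median of -0.18, and the other centring gave 74 and 27. No direction of the intergenic regions as a group can thus be read from these ratios. The comparisons share samples and the promoter centre.

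The same words were counted in the regions called by height. SOX words stood in 25% of the regions higher in SOX2-ON than SOX2-OFF (43 of 172, 19.1 to 32.0; 9.88% backwards), in 8.55% of those lower and in 8.31% of those within 1.5-fold. TCF/LEF words stood in 9.49% of the regions lower in SOX2-ON than SOX2-OFF (61 of 643, 7.46 to 12.0; 2.33% backwards), 4.07% of those higher and 3.31% of those within 1.5-fold. These groups were defined with the promoter centring.

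Among strong regions listed in all samples the widest gaps between SOX2-ON and SOX2-OFF ran both ways. Near Fat3, a cadherin gene, fold enrichment was 5.22 for SOX2-ON, 1.53 for SOX2-OFF and 1.72 for CEpiLC, a promoter-centred log2 ratio of 1.48 to SOX2-OFF. Near Nrcam, a neural adhesion molecule, it was 5.31, 1.68 and 1.80, with a SOX word in the window, and near Tnfrsf19, a receptor of the TNF receptor family, 4.41, 1.49 and 1.66, again with a SOX word. SOX2-ON was the high sample in each, and the others lay close together. In the other direction a region near Prtg, which encodes protogenin, an adhesion protein of the caudal embryo, had 1.58, 3.81 and 3.18, a log2 ratio of -1.57. Regions near Cypt12, with a TCF/LEF word and a GATA word, had 1.57, 4.01 and 3.62, and near Zc2hc1a 1.54, 3.94 and 3.13. Here SOX2-ON was the low sample and SOX2-OFF and CEpiLC were near each other. A region near Kcnv1 was high in SOX2-OFF alone (4.20, against 1.68 in SOX2-ON and 1.91 in CEpiLC).

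Genes known from the epiblast and streak were then followed by the intergenic regions nearest to them. The lists follow themes of the study and are not independent of it. A nearest start does not show which gene a region acts on. Naive pluripotency genes had 82 regions, of which 10 were strong in at least 1 sample and 26 (31.7%) listed in all, against 29.1% of all intergenic regions. The strong share was 12.2% there, 10.6% for early streak genes, 9.38% for caudal genes, 13.6% for anterior genes and 17.3% for formative genes. It was 8.16% for WNT genes, 15.3% for FGF and Nodal feedback genes and 23.5% for housekeeping genes, against 8.15% of all intergenic regions. Early streak and mesendoderm genes had 94, with 10 strong and 23 in all 3 samples (24.5%), and caudal epiblast and paraxial mesoderm genes 32, with 3 strong and 13 in all (40.6%). Anterior epiblast and neural genes had 44, with 20 in all samples (45.5%), and formative epiblast genes 52, with 23 (44.2%). WNT pathway genes had 98, with 24 in all samples (24.5%), and genes of FGF and Nodal feedback 98, with 40 (40.8%). Housekeeping genes had 17, with 10 in all samples (58.8%).

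Height within these lists was compared at the regions listed in all samples. At the 23 early streak regions listed in all samples the median percentile was 51.8 for SOX2-ON, 74.7 for SOX2-OFF and 75.7 for CEpiLC, against 58.1, 65.7 and 68.7 over all 10981 such regions. At the 40 regions of FGF and Nodal feedback genes it was 67.1, 62.0 and 59.0, with SOX2-ON highest. At the 26 naive pluripotency regions it was 69.1, 66.6 and 73.2, and at the 13 caudal regions 62.4, 57.4 and 67.8. The anterior list gave 67.3, 66.4 and 75.5, the formative list 62.9, 72.0 and 75.9 and the WNT list 60.9, 67.9 and 73.0. The 10 housekeeping regions, which serve as a control, gave 58.3, 75.5 and 67.6, so a low SOX2-ON value beside SOX2-OFF was not particular to the streak list. Regions of a gene are neighbours and not independent, and no test was made.

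**Figure D5:**
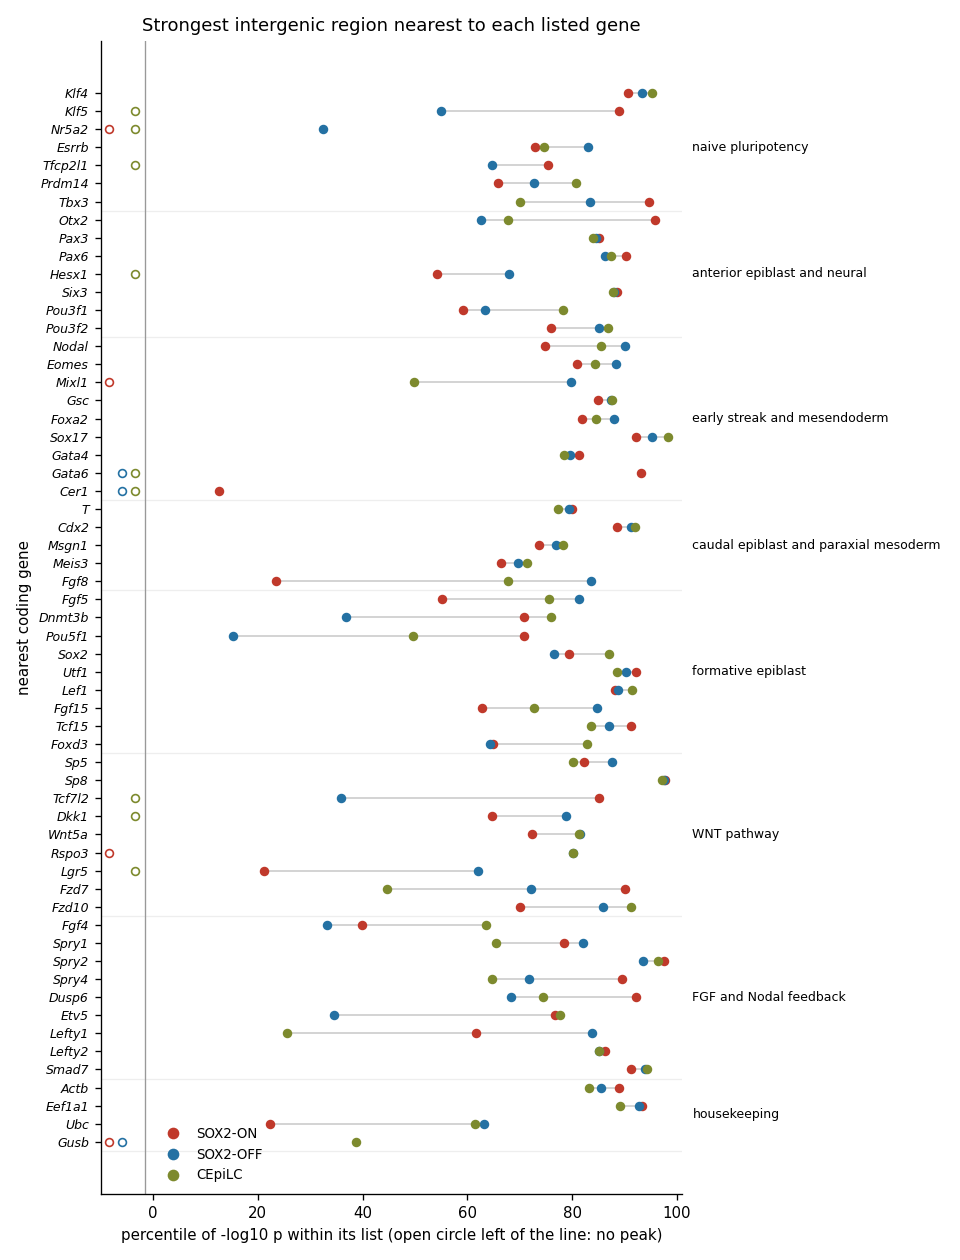
Percentile of −log10 p within its own list (x axis, 100 is the strongest peak) of the strongest intergenic region nearest to each listed gene (y axis, grouped by list), in the 3 samples. Open circles left of the line mark samples without a peak. At Fgf8 the percentile was 23.4 in SOX2-ON and 83.7 in SOX2-OFF, and at Otx2 95.8 and 62.6.

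Naive pluripotency genes were mixed, as the plot of percentiles by gene shows. Klf5, which helps maintain the naive state, had 22 intergenic regions. The region with the SOX word printed above, 21764 bp upstream, stood at percentile 87.3 for SOX2-ON, 49.8 for SOX2-OFF and 15.5 for CEpiLC, with fold enrichments of 3.35, 1.57 and 1.63. A Klf5 region 32148 bp downstream stood at 89.0 and 54.9 and had no CEpiLC peak. By percentile SOX2-ON was highest at both. It was not at the other strong Klf5 regions, 25107 bp (84.6, 89.0 and 79.3) and 39633 bp downstream (80.4, 84.7 and 87.8). By fold enrichment, not centred, SOX2-ON was highest there too (3.10, 2.95 and 2.07 at the first, 2.78, 2.55 and 2.55 at the second). At Tbx3, which supports self-renewal, the strongest region (80726 bp upstream) stood at 94.7, 83.4 and 70.0, in the order SOX2-ON, SOX2-OFF, CEpiLC, and one 56127 bp upstream at 57.0, 82.9 and 82.4. The strongest region of Klf4, a reprogramming factor, was near even (90.7, 93.3 and 95.2). Of the 7 Klf4 regions, 3 were listed in all samples, 3 in SOX2-ON only and 1 in SOX2-ON and CEpiLC. Tfcp2l1, a naive factor, had 9 intergenic regions of which none was listed in all samples. Klf2, Nanog and Zfp42 lie on chromosomes left out by the rule.

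Among anterior and neural genes, Otx2, a head and epiblast factor, had its strongest region 26147 bp upstream (chr14:48699966-48701974), with fold enrichments of 4.91 for SOX2-ON, 1.84 for SOX2-OFF and 1.90 for CEpiLC. SOX2-ON was the high sample there and, with a smaller gap, at an Otx2 region 7084 bp downstream (3.90, 3.00 and 2.53). The percentiles were 95.8, 62.6 and 67.8 at the first and 94.6, 91.0 and 88.6 at the second. The strongest regions of Pax3, Pax6 and Six3, factors of the neural tube, eye and forebrain, differed by few percentile points. These were 85.1, 84.6 and 84.1 at Pax3 and 90.4, 86.3 and 87.4 at Pax6. By fold enrichment, not centred, SOX2-ON was highest at each. Fold enrichments were 2.97, 2.38 and 2.17 at Pax3, 3.77, 2.63 and 2.40 at Pax6 and 3.62, 2.89 and 2.48 at Six3. Oct6 was not matched by that name in the annotation, and its gene was followed as Pou3f1.

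Among early streak genes, several regions were lowest in SOX2-ON by percentile. So was the median over all 10981 intergenic regions listed in every sample (58.1, 65.7 and 68.7). Nodal, a TGF-β family ligand of the streak, had its strong region 11267 bp upstream at percentile 74.9 for SOX2-ON, 90.1 for SOX2-OFF and 85.5 for CEpiLC. Its fold enrichments were 2.37, 2.71 and 2.31, lowest in CEpiLC. Eomes, a T-box factor of mesendoderm, had a region 7874 bp upstream at 37.4, 85.5 and 82.4, with fold enrichments of 1.66, 2.53 and 2.20. Its region with the T word, 87242 bp upstream, was closer to even (80.9, 88.4 and 84.4). Mixl1, a homeobox gene of the streak, had its strongest region 5556 bp upstream at 79.8 in SOX2-OFF and 49.9 in CEpiLC, with no SOX2-ON peak. Gsc, an organizer gene, ran the other way at a region 18779 bp upstream with a GATA word, at 86.3 in SOX2-ON, 62.3 in SOX2-OFF, and had no CEpiLC peak. The strongest region of Gata4, a GATA factor of endoderm and heart, was near even (81.3, 79.6 and 78.5), and that of Cer1, a Nodal inhibitor, was in SOX2-ON only at percentile 12.6. Those of Gata6 were described above, and a further Gata6 region 11190 bp upstream was listed in all samples (86.5, 78.5 and 81.9).

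Caudal and WNT genes differed from gene to gene. At Fgf8, the ligand of the caudal growth zone, the strongest region (8533 bp downstream) stood at 23.4, 83.7 and 67.8, and SOX2-ON was the low sample. The stronger region of Cdx2, a posterior homeobox gene, stood at 88.6, 91.2 and 92.0, and that of Sp8, a WNT target, at 97.8, 97.5 and 97.1. The strongest T region, 33002 bp downstream with a CTCF word, stood at 80.0, 79.4 and 77.3. Lef1, the WNT effector, had 3 strong regions of different kinds. The strongest stood at 88.2, 88.7 and 91.4, the one 7902 bp upstream at 83.0, 51.3 and 82.7, and the one 74684 bp upstream at 83.2 in SOX2-OFF and 75.6 in CEpiLC with no peak in SOX2-ON. Tcf7l2, a TCF factor, stood at 85.1 and 35.9, and Dkk1, a WNT inhibitor, at 64.7 and 78.8, both without a CEpiLC peak. Rspo3, an amplifier of WNT signals, had its strongest region in SOX2-OFF (80.2) and CEpiLC (80.1) alone. It was 1 of 6 Rspo3 regions, and of the others 4 were in SOX2-ON only and 1 in SOX2-ON and SOX2-OFF. Fzd7, a WNT receptor, had 3 strong regions, all with SOX2-ON highest: at 32665 bp upstream 90.2, 72.1 and 44.6, at 58480 bp 87.2, 68.6 and 80.2, and at 90297 bp 84.7 with no peak in either other list.

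Genes of FGF and Nodal feedback had 15 strong regions (15.3% of 98), of which 12 lay nearest to Spry2, Spry4 and Dusp6. Spry2, an inhibitor of FGF signalling, had 5, among them 1 in SOX2-ON only (44756 bp downstream, percentile 87.5) and 1 at 97.5, 93.6 and 96.4 (23366 bp upstream). Spry4, its relative, had a region 27086 bp downstream at 89.6, 71.7 and 64.8. Dusp6, a phosphatase of the same pathway, had regions of both kinds. At 89868 bp downstream it stood at 92.3, 68.3 and 74.5, and at 97068 bp at 39.0, 86.6 and 27.8, where SOX2-OFF was the high sample. Fgf15, an FGF ligand, had regions at 10791 bp (2.71, 72.0 and 84.5) and 7047 bp upstream (62.9, 84.7 and 72.8). SOX2-ON was lowest at both.

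Sox2 itself, the gene ablated in the engineered line, had 20 intergenic regions nearest to it, 2 of them strong and both listed in every sample. The one 7505 bp upstream stood at 79.4 for SOX2-ON, 76.5 for SOX2-OFF and 87.1 for CEpiLC, and the one 12390 bp downstream at 82.0, 81.1 and 85.3. Its promoter held a peak in every list. Peaks beside a gene are no check of whether its coding sequence was deleted or whether the transgene was expressed. Pou5f1, the partner of SOX2 in ES cells, had 1 intergenic region, 14788 bp upstream, at 70.8, 15.2 and 49.7, lowest in SOX2-OFF.

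Some genes had far more intergenic regions than others. Gm4791 had 51, Prl2c3 34, Sik1 and Tfap2c 31 each and Hes1 30. Strong regions numbered 0 of 51 at Gm4791, 2 of 34 at Prl2c3, 3 of 31 at both Sik1 and Tfap2c and 2 of 30 at Hes1. Of all intergenic regions 8.15% were strong. Windows near Prl2c3, of the prolactin family, had a mean repeat content of 48.0%, and whether reads there could be placed uniquely was not tested. Tfap2c, a factor of trophectoderm and germ cells, had 10 regions in all samples and 10 in CEpiLC only, and Hes1, a Notch target, had 7 in all samples.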

How the data were processed

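ATAC-seq was made from 50000 cells per sample with at most 12 PCR cycles, 1 sample in each of 3 groups. The authors trimmed the reads, aligned them to mm10 with BWA, filtered them, discarded those of the mitochondrial genome and ran MACS for broad peaks, each sample on its own, in the nf-core ATAC-seq pipeline. The deposited lists give for each peak the fold enrichment over local background, a −log10 p and a −log10 q (at least 1.00) as the authors' peak caller wrote them, and a display score derived by the authors' peak caller that was not used further. Read totals were not used here, so depth is unknown.

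Peaks on chromosomes 1 to 19 other than 6, 8 and 11 were merged where they overlapped or met end to end, with the same 144115 regions from bedtools 2.31.1. Positions were set against GENCODE M21. A region took the values of its strongest peak. Its percentile is the share of that list's peaks at or below its −log10 p, and strong means among the 15000 strongest. Ratios of fold enrichment were centred on promoters listed in all 3 samples and called at 1.5-fold. In the 200 bp around the midpoint of a region's peak of highest percentile in any list, 16 motifs were searched. They were also read backwards and set against regions of all samples in GC bins of 5%. Shares have Wilson 95% intervals, which cover counting error over regions only; with 1 sample a group, no test was made.

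Named regions were the 5 strongest of each class, the 5 largest ratios in each direction among strong regions, and the strongest and all strong regions of genes in 8 lists. The members and lists were chosen with earlier results of these data known, and the gene lists follow themes of the study. Other choices of q, merging, overlap, distance, rank, centring, fold and window were tried. Assignment and motif search were tested on simulated data. Python 3.11.15, numpy 2.4.6, pandas 2.3.3, scipy 1.17.1, pysam 0.24.0 and matplotlib 3.10.9 were used. The window of 1 region is not reported here.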

Additional observations from a re-analysis of the deposited data

How the results depend on the processing

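No paired analysis was possible because there was 1 sample in each group, and for the same reason no sample could be left out. In all, 168 alternative values were computed for 30 values under 18 settings, of which 119 moved beyond the interval or 1.5 times the count and 49 did not. No cause of a change was tested.

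With peaks of −log10 q of at least 2, the share of regions in all samples was 32.7%, in SOX2-ON only 19.2%, in SOX2-OFF only 14.7% and in CEpiLC only 12.0%. With at least 5 the last 3 were 25.8%, 18.5% and 2.40%. With peaks within 500 bp merged, the 4 shares were 30.5%, 15.5%, 12.4% and 19.9%. All-sample and SOX2-ON only shares were 28.4% and 16.7% from 10 kb on, and 28.3% and 16.7% over 5 kb from any transcript start.

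Strong SOX2-ON regions missing from SOX2-OFF and CEpiLC were 14.3% and 23.7% at a −log10 q of at least 2 (q 2 from here on, likewise q 5), 22.4% and 36.6% at q 5, 0.690% and 0% among the strongest 5000, 16.1% and 23.8% among the strongest 30000, and 13.5% and 21.9% when ranked by fold enrichment. Strong SOX2-OFF regions missing from SOX2-ON and CEpiLC were 4.20% and 2.84%, 8.05% and 10.3%, 0.752% and 0.752%, 8.0% and 6.99%, and 4.35% and 3.44%, in the same order. Strong CEpiLC regions missing from SOX2-ON were 3.81%, 8.43%, 0%, 10.3% and 3.90%. Those missing from SOX2-OFF were 2.72% at q 5, 4.71% among the strongest 30000 and 1.84% by fold enrichment. Of the settings named here, SOX2-ON had the higher share in each other than the strongest 5000.

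Counts by height are given as higher and lower. For SOX2-ON against SOX2-OFF they were 337 and 204 centred on all shared regions, 493 and 119 not centred, 21 and 63 at 2-fold, and 578 and 1476 by a percentile difference over 25. At q 2 they were 94 and 464, and at q 5 25 and 178. For SOX2-ON against CEpiLC they were 501 and 116, 718 and 53, and 12 and 71, with 745 and 2141 by percentile, 63 and 1643 at q 2, and 10 and 629 at q 5. For SOX2-OFF against CEpiLC they were 74 and 27, 85 and 23, 2 and 4, and 716 and 950 by percentile, with 22 and 83 at q 2, and 3 and 39 at q 5. The direction of the split thus depended on the centring.

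SOX words in SOX2-ON only were at 17.1% at q 2, 17.7% at q 5, 27.9% over whole regions, 25.7% in 400 bp and 21.6% in strong regions. GATA words in SOX2-ON and SOX2-OFF were at 4.49% at q 5, 15.4%, 9.35% and 18.9% in the same last 3 settings, and TCF/LEF words in SOX2-OFF and CEpiLC at 6.47%, 8.73%, 16%, 8.76% and 12.3%. CTCF words in all samples were at 7.59%, 7.26%, 23.5%, 11.4% and 4.39%. In windows with no repeat base, a choice made after seeing the data, GATA was at 6.84% and CTCF at 7.11%. Of strong regions 49.5% lay within 25 kb of the start, against 48.4% of all intergenic regions. The gene lists together had 517 regions in the main setting, 327 at q 2, 198 at q 5 and 843 when any start within 100 kb counted. All intergenic regions numbered 37716 in the main setting, 22834 at q 2 and 11146 at q 5.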
